A study of Mus musculus with 16 samples.

Results

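The subunits of the oxidative phosphorylation machinery were examined in mouse peritoneal macrophages exposed to oxidised low-density lipoprotein (ox-LDL), to high glucose, or to both. Members were taken by gene symbol from the table of 15871 entries: every symbol beginning with Nduf followed by a, b, c, s or v and a digit, with Uqcr, with Cox4 to Cox8, with Atp5, or with mt-, leaving out symbols that contain -ps. The rule found 90 genes, of which 77 are encoded in the nucleus and 13 in mitochondrial DNA. No measured value entered the rule. The nuclear members comprise 35 of complex I, 8 of complex III, 17 of complex IV and 17 of complex V, where Ndufa4 and Ndufa4l2 were counted with complex IV, to which the Ndufa4 protein belongs. The mitochondrial members are 7 subunits of complex I, 1 of complex III, 3 of complex IV and 2 of complex V. Of the 90 members, 87 passed the filter on low counts and were tested. Cox7a1, Cox4i2 and Ndufa4l2 did not pass.

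Oxidative phosphorylation couples the transfer of electrons from NADH and succinate to oxygen with the synthesis of ATP across the mitochondrial inner membrane. Complexes I, III and IV pump protons while passing electrons on, and complex V, the ATP synthase, uses the proton gradient. These 4 complexes are built from subunits of dual origin: most are made from nuclear messages and imported, while a few hydrophobic core subunits are transcribed as long polycistronic RNAs inside the organelle and cut apart there. In macrophages the balance between oxidative phosphorylation and glycolysis is known to differ between activation states.

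The cells were starch-elicited peritoneal macrophages (6% starch) of wild-type C57BL/6 mice aged 8 weeks, cultured in serum-containing DMEM and harvested after 48 h of treatment. The L_C group received 27.5 mM mannitol, an osmotic control, in low glucose. The L_O group received ox-LDL in low glucose, at a concentration the labels give as 50 mg/ml, and its labels name no mannitol. The H_C group received 33 mM glucose, and the H_O group received 33 mM glucose together with the same labelled concentration of ox-LDL. By the labels, L_O against L_C thus differs in mannitol as well as in ox-LDL, and their parts cannot be told apart. H_O against L_O likewise has no labelled osmotic control for glucose, and the interaction draws on all 4 groups. Each group had 4 libraries, 16 in all. Whether the replicates of a group were separate animals or cultures is not in the labels. The p-values therefore rest on the spread among libraries alone, which may be technical. Library totals ran from 32596640 to 41712885 counts. Summed macrophage markers stood between 17217 and 20726 CPM (read counts scaled to library size, here with TMM factors) in every library, while summed B cell markers reached at most 2.36 CPM, T and NK cell markers 9.68 CPM and neutrophil markers 5.92 CPM. Only 3 of 8 neutrophil markers were among the entries, beside 5 of 6 B cell and 7 of 8 T and NK cell markers. The library of L_C replicate 4 stood apart from the other 3 of its group: per degree of freedom, the chi-square of its counts against theirs was 93.9 to 97.5, where replicate pairs without it gave 6.48 to 18.5. Counts and named calls that rest on the L_C group are therefore given with and without it.

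Levels per kilobase of principal transcript spanned a wide range. Over the 15 libraries other than L_C replicate 4, mt-Co1, the catalytic subunit of complex IV, averaged 5877 CPM per kilobase. The mt-Co2, mt-Atp6, mt-Atp8 and mt-Co3 levels followed at 1938, 1736, 1622 and 1588 CPM per kilobase. The lowest of the mitochondrial members was mt-Nd3 at 89.8 CPM per kilobase, below 11 nuclear members. Among nuclear members the highest levels per kilobase were those of Cox4i1 (268), a regulatory subunit of complex IV, and Atp5b (248). Next came Atp5a1 (197), the structural partner of the catalytic Atp5b in the ATP synthase head, and Cox7a2l (158), a paralogue of Cox7a2. Isoforms known from muscle, testis, lung or hypoxic cells were close to 0: Cox7a1, Cox6b2, Cox4i2 and Ndufa4l2 averaged 0.365, 0.243, 0.0622 and 0.0269 CPM per kilobase. Cox6a2, the heart and skeletal muscle isoform of a complex IV subunit, stood above these at 4.85 CPM per kilobase, beside 138 for its widespread counterpart Cox6a1.

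A block of 7 neighbouring mitochondrial members moved together between libraries of the same group, L_C replicate 4 aside. In their order along the mitochondrial DNA these are mt-Co2, mt-Atp8, mt-Atp6, mt-Co3, mt-Nd3, mt-Nd4l and mt-Nd4. The block was not among the planned sets, so its wider spread is a description and not a test. The level of mt-Co3, a core subunit of complex IV, was 677, 1558, 914 and 1398 CPM in L_C, 1450, 1316, 1346 and 1451 in L_O, 1121, 1553, 782 and 1562 in H_C, and 894, 976, 1304 and 1764 in H_O. Libraries of a single group thus differed by up to 2.30 times (L_C, without replicate 4), 2.00 times (H_C) and 1.97 times (H_O), but by 1.10 times in L_O. In contrast, mt-Nd1, a core subunit of complex I that lies outside the block, was 1037, 1106, 1134 and 2748 CPM in L_C, 1284, 1241, 1316 and 1352 in L_O, 1103, 1167, 1209 and 1193 in H_C, and 1387, 1352, 1378 and 1439 in H_O. Leaving out L_C replicate 4, its libraries differed by at most 1.10 times within a group. Over the 15 libraries the within-group standard deviation on the log2 scale ran from 0.26 to 0.47 for the 7 block members (median 0.44) and from 0.054 to 0.11 for the other 6 mitochondrial members, against a median of 0.11 over the 74 tested nuclear members and 0.13 over all 13527 tested entries.

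**Figure D1:**
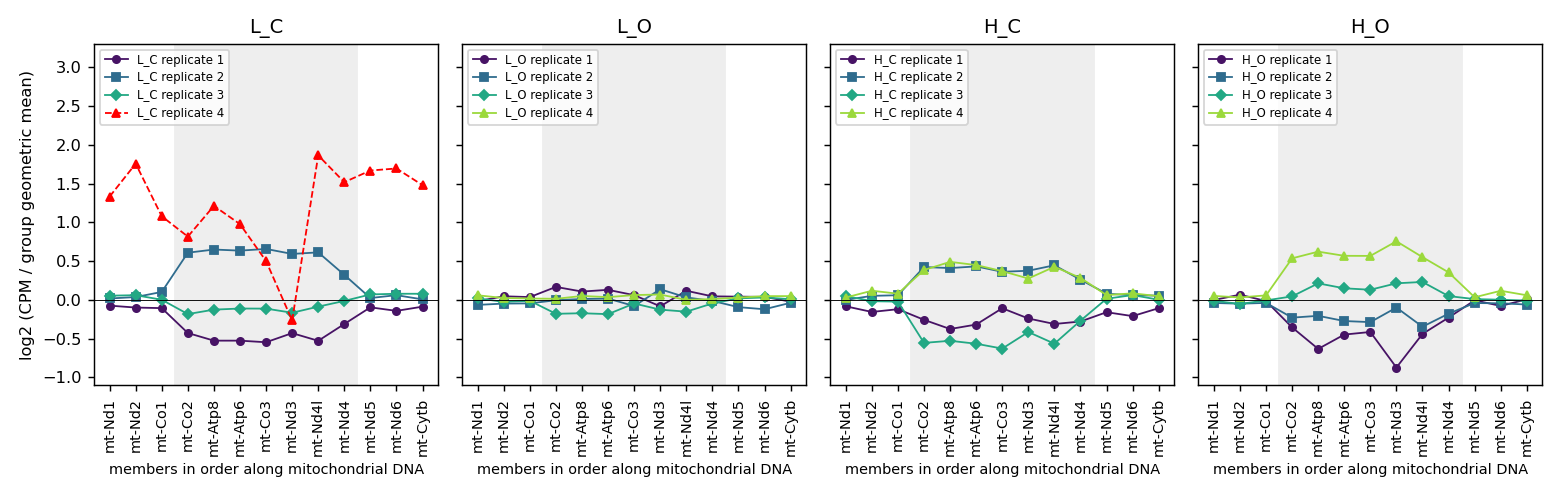
Mitochondrial members in their order along mitochondrial DNA (x axis) against the log2 ratio of each library's CPM to its group's geometric mean (y axis), with 1 panel per group and 1 line per library; in L_C the mean is over replicates 1 to 3 and the dashed red line is replicate 4. Inside the shaded stretch from mt-Co2 to mt-Nd4 the lines other than L_C replicate 4 part together in L_C, H_C and H_O. Within-group standard deviations there are 0.26 to 0.47 without that library. Outside the stretch the lines stay close together apart from L_C replicate 4.

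The block members rose and fell in step in the 15 libraries other than L_C replicate 4. Across the 15 libraries the deviations from the group mean correlated between block members at Pearson r of 0.89 to 0.996 over 21 pairs. This is a description, because the block was not planned and all members share each library's depth and scaling. Among the other 6 members r was 0.69 to 0.94 over 15 pairs, and between both sets 0.25 to 0.89 over 42 pairs. H_O replicate 1 was the lowest of its group in 7 of the 7 block members and H_O replicate 4 the highest in 7. In L_C, without replicate 4, replicate 1 was the lowest and replicate 2 the highest in all 7. The order was less even in the other groups. In L_O replicate 3 was the lowest in 6 and replicate 1 the highest in 5. In H_C replicate 3 was the lowest in 6 and replicate 4 the highest in 4. L_C replicate 4 did not move as a block: its log2 ratio to the other L_C libraries ran from -0.33 (mt-Nd3) to 1.79 (mt-Nd4l). The ratio of the summed block counts to the summed counts of mt-Nd1, mt-Nd2, mt-Nd5, mt-Nd6 and mt-Cytb was 0.868, 1.62, 0.988 and 0.784 in L_C, 1.39, 1.36, 1.20 and 1.30 in L_O, 1.22, 1.67, 0.923 and 1.66 in H_C, and 0.907, 1.03, 1.28 and 1.64 in H_O. The groups overlapped in this ratio.

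The same stretch of mitochondrial DNA has a nearly identical copy in the nuclear genome. The annotation (GENCODE M21, GRCm38, the assembly also named mm10) places it on the minus strand at chr1:24611535-24616197, 4663 bases that hold a pseudogene for the end of mt-Co1 and for mt-Co2, mt-Atp6, mt-Co3, mt-Nd3, mt-Nd4l and the start of mt-Nd4. Of 4149 bases compared between these 7 mitochondrial genes and their chromosome 1 copies, 7 differed. Of all stretches of 50 bases in each gene, 100% were shared with some other annotated transcript for mt-Co2, 99.5% for mt-Atp6, 99.9% for mt-Co3, 98.8% for mt-Nd4l, 98.0% for mt-Nd3 and 62.2% for mt-Nd4. The share was 51.1% for mt-Co1, 8.19% for mt-Nd2, 7.61% for mt-Nd5, and 0% for mt-Nd1, mt-Nd6 and mt-Cytb. It was also 0% for mt-Atp8, for which no copy is annotated although it lies between 2 copied neighbours. A read of that length from a shared stretch cannot be assigned to one place by its sequence, and how the authors' counting treated such reads is not given in the sources used here. The rows of the copies themselves were not analysed here, and the part of the copies in the spread between libraries was not tested. To show how alike the sequences are, the places where they differ are printed from the reference transcripts (GENCODE M21, sense strand, 5′ to 3′), with differing bases in capitals. The first pair is bases 1054 to 1113 of mt-Co1, where the chromosome 1 copy begins, and the second is the first 60 bases of mt-Nd3, counted from 1 at the start of each mitochondrial gene.
mt-Co1: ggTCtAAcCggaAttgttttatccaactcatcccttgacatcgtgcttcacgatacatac
Gm29216: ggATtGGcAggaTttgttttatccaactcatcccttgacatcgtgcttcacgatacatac
mt-Nd3: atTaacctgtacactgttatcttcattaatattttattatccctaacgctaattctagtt
Gm28438: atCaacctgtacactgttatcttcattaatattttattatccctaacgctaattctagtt
The mt-Co1 pair differs by T1056A, C1057T, A1059G, A1060G, C1062A and A1066T, all at the edge of the copy, and the mt-Nd3 pair by T3C. The copies of mt-Co2, mt-Atp6, mt-Co3, mt-Nd4l and mt-Nd4 had 0 differing bases over the compared length.

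The nuclear and the mitochondrial members took very different shares of each library. The 13 mitochondrial members held 1.48%, 1.95%, 1.68% and 3.71% of the counts in L_C, 1.94% to 2.07% in L_O, 1.62% to 2.04% in H_C and 1.86% to 2.30% in H_O. The 77 nuclear members held 0.392%, 0.394%, 0.397% and 0.301% in L_C, 0.423% to 0.437% in L_O, 0.368% to 0.395% in H_C and 0.414% to 0.432% in H_O. The nuclear share of raw totals did not overlap between ox-LDL libraries and the others at either glucose level, whereas the mitochondrial share overlapped at both, in low glucose also without L_C replicate 4. With library size scaled by the TMM factors the nuclear share still separated L_O (0.414% to 0.430%) from L_C (0.323% to 0.407%), but H_O replicate 1 (0.401%) fell just below H_C replicate 1 (0.402%), so the high glucose groups overlapped. Mitochondrial over nuclear counts gave a ratio of 12.3 in L_C replicate 4 and of 3.77 to 5.55 in the other 15 libraries. Without that library the ratio overlapped between all 4 groups. The mitochondrial members outside the block and other than mt-Co1 held 0.376%, 0.406% and 0.422% in L_C replicates 1 to 3 and 1.14% in replicate 4, 0.445% to 0.485% in L_O, 0.360% to 0.412% in H_C and 0.455% to 0.485% in H_O, so that this smaller sum also separated ox-LDL libraries from the others once L_C replicate 4 was left out, with and without the TMM factors. No test was made on these sums.

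**Figure D2:**
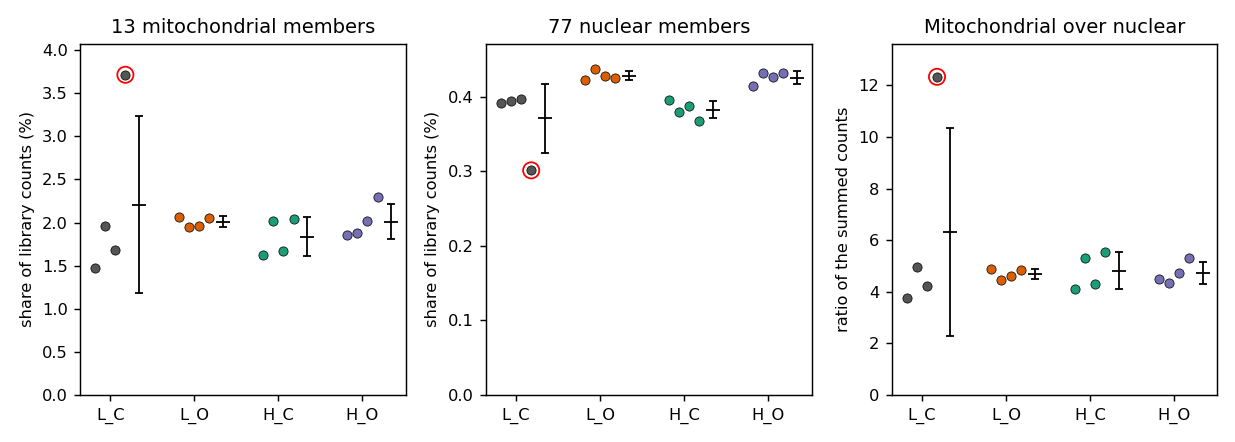
Share of each library's raw total count (%) held by the 13 mitochondrial members (left) and the 77 nuclear members (middle), and the ratio of both sums (right), by group; points are libraries, bars show mean and SD, and the red ring marks L_C replicate 4. The ringed library has the highest mitochondrial share (3.71%) and the lowest nuclear share (0.301%), and the ox-LDL groups L_O and H_O have nuclear shares of 0.414% or more.

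In L_C replicate 4 the nuclear and the mitochondrial members moved in opposite directions. Of the 13 mitochondrial members, 11 were above the other 3 L_C libraries and 0 below. L_C replicate 1 was likewise outside its fellows, below them in all 13, while replicate 2 was above for 2 and replicate 3 outside for 0. The ratio to the mean of those libraries was highest for mt-Nd4l (3.45), mt-Nd2 (3.37), mt-Nd6 (3.23) and mt-Nd5 (3.18), and lowest for mt-Co3 (1.33) and mt-Nd3 (0.794). Of the 74 tested nuclear members, 50 were below the other 3 and 10 above, and 42 were below all 15 other libraries. The lowest ratios were those of Ndufa2 (0.395), Ndufb2 (0.419), Ndufb3 (0.424) and Uqcrh (0.425), and the highest those of Cox6a2 (2.16), Ndufa3 (1.54) and Uqcrb (1.53). A library outside the range of its 3 fellows is common: L_C replicate 4 was outside for 81.1% of nuclear members and 71.0% of all tested entries, and the other L_C libraries for 32.4% to 43.2% and 40.9% to 43.4%. Cytosolic ribosomal protein genes also held less of this library, 1.39% against 1.77% to 1.81%, and its summed markers of large peritoneal macrophages were higher, 74.7 CPM against 43.7 to 44.6. The part of these differences in the results was not tested.

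ox-LDL in low glucose, against the mannitol control, was accompanied by small rises in nuclear subunits of all 4 complexes. With edgeR's quasi-likelihood test across all entries and a Benjamini-Hochberg adjusted p threshold of 0.05, 10 of the 74 tested nuclear members were called higher in L_O than in L_C and 1 lower. Over all entries the comparison called 25.8%, with 12% higher and 13.8% lower, so the share of nuclear members called higher (13.5%) was close to the background and the share called at all (14.9%) was under it. The members leaned one way: 64 of 74 (86.5%) had a positive log2 fold change, with a median of 0.14, where 50.1% of all tested entries were positive with a median of 0.00092. Without L_C replicate 4, 9 of 75 were called higher and 1 lower beside 28.3% of all entries called (13.8% higher), and 76.0% were positive with a median of 0.09. Libraries of the groups did not overlap for 13 nuclear members, all higher in L_O, beside 26.1% of all entries (12.2% higher, 13.9% lower), and without L_C replicate 4 for 15 higher and 2 lower beside 34.7%. On library totals with no further scaling, which moved the median of all entries to 0.09 and their calls to 2857 higher and 1392 lower from 1623 and 1867, 25 nuclear members were called higher and 0 lower. In bulk RNA, fewer cells of a type and less RNA per cell cannot be told apart.

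By complex, 5 of 35 nuclear members of complex I were called higher. Ndufa12, an accessory subunit, was 12.2, 9.89, 10.7 and 9.496 CPM in L_C and 16.3, 15.7, 13.2 and 14.1 in L_O, with every L_O library above every L_C library and a fold change of 1.40 (log2 0.49, SE 0.14, adjusted p = 0.0134 in edgeR). Leaving out L_C replicate 4 gave a log2 fold change of 0.44 (SE 0.15, adjusted p = 0.0286). Ndufb4, another accessory subunit, was 17.2, 16.8, 17.4 and 12.97 CPM in L_C against 20.7, 23.6, 20.97 and 20.9 in L_O, again with no overlap (log2 0.42, SE 0.10, adjusted p = 0.00551; 0.33, SE 0.094, adjusted p = 0.0119 when L_C replicate 4 was left out). Ndufs1, the largest core subunit of the electron input module, was 74.8, 66.4, 72.6 and 53.4 CPM against 80.4, 81.6, 77.2 and 78.8 (log2 0.25, SE 0.075, adjusted p = 0.0183), and the difference was 0.16 (SE 0.046, adjusted p = 0.0124) without that library. The other two were Ndufb6 (log2 0.35, adjusted p = 0.0243) and Ndufb9 (log2 0.36, adjusted p = 0.0377, and 0.21, adjusted p = 0.041 without it), the latter named after its values were seen. Ndufb6 was no longer called without L_C replicate 4 (log2 0.24, adjusted p = 0.0545 in edgeR). It was also lost without L_O replicate 3 or 4 and with only the groups compared, and the Ndufs1 call likewise with only the groups compared (adjusted p = 0.0968). Exons of Ndufb6 overlap those of Smim27 on the other strand and exons of Ndufb9 those of Gm49356 on the same strand, and whether counting used strand is not given in the sources used here.

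In complex III, 1 of 8 nuclear members was called. Uqcrc1, a core subunit, was 119.8, 124, 124 and 115 CPM in L_C and 135, 138, 131 and 132 in L_O, without overlap (fold change 1.11, log2 0.15, SE 0.038, adjusted p = 0.0054 in edgeR), and the call was lost with only the groups compared (adjusted p = 0.0515). It was log2 0.13 (SE 0.033, adjusted p = 0.00463) without L_C replicate 4. In complex V, 2 of 17 were called. Atp5b, the catalytic beta subunit of ATP synthase, was 459.9, 450.5, 474 and 383 CPM in L_C and 540.1, 511, 499.7 and 510.3 in L_O, and the groups did not overlap (fold change 1.17, log2 0.22, SE 0.053, adjusted p = 0.00402). Without L_C replicate 4 its log2 fold change was 0.16 (SE 0.032, adjusted p = 0.000642). Atp5f1, a subunit of the stator stalk, was 108, 119, 121 and 101 CPM against 124, 131, 121 and 119.7, and the groups overlapped (log2 0.15, SE 0.052, adjusted p = 0.0475). The Atp5f1 call was lost in 19 of 27 alternative settings, among them those without L_C replicate 1, without any 1 of the L_O libraries, and without L_C replicate 4 (log2 0.10, adjusted p = 0.0909), and 337 of its exon bases overlap Wdr77 on the other strand.

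In complex IV, 2 of 14 tested nuclear members were called higher and 1 lower. Cox7b, a small accessory subunit, was 39.6, 33.8, 34.5 and 24.3 CPM in L_C and 38.9, 43.2, 40.8 and 46.5 in L_O (log2 0.36, SE 0.10, adjusted p = 0.0154 in edgeR, and 0.24, SE 0.070, adjusted p = 0.0144 without L_C replicate 4), with L_O replicate 1 below L_C replicate 1. The call was lost without L_O replicate 4 and with only the groups compared (adjusted p up to 0.0825). Ndufa4 was 23.4, 25.8, 22.8 and 25.2 CPM against 33.0, 28.7, 26.5 and 28.6, without overlap (log2 0.26, SE 0.079, adjusted p = 0.0196, and 0.28, SE 0.084, adjusted p = 0.0152 without L_C replicate 4), and lost its call without L_C replicate 3 or L_O replicate 1 (adjusted p up to 0.0851). Cox7a2l went the other way. It stood at 200.3, 211, 186 and 116 CPM in L_C and at 136.5, 142, 136.5 and 132 in L_O. Every L_O library was below L_C replicates 1 to 3, and L_C replicate 4 was below every L_O library. The fold change was 0.768 with all libraries (log2 -0.38, SE 0.12, adjusted p = 0.0248) and 0.688 without L_C replicate 4 (log2 -0.54, SE 0.050, adjusted p = 7.75e-08 in edgeR). The call from all libraries was lost in 9 of 27 alternatives, 6 of them the omission of L_C replicate 1, 2 or 3 or of L_O replicate 1, 3 or 4, and its log2 fold change ranged from -0.54 to -0.29.

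The mitochondrial members were not called in this comparison unless L_C replicate 4 was left out. With all libraries, edgeR called 0 of 13 (2 at an unadjusted p under 0.05), DESeq2 0 and limma-voom 0, and the median log2 fold change was -0.27. Without that library all 13 were positive, the median was 0.25, and edgeR called 3 higher (23.1%), beside 13.8% of all entries. These were mt-Nd1, with the levels given above (log2 0.25, SE 0.038, adjusted p = 3.46e-05), mt-Cytb, the mitochondrial subunit of complex III, at 749.8, 800.1 and 841 CPM in L_C replicates 1 to 3 and 906, 897, 926 and 952 in L_O (log2 0.21, SE 0.042, adjusted p = 0.000841), and mt-Nd2 at 539.6, 593 and 603 CPM against 678, 635, 645 and 667 (log2 0.18, SE 0.053, adjusted p = 0.0125). All 3 lie outside the block, and in each the L_O libraries were above L_C replicates 1 to 3. With L_C replicate 4, which held 2748 CPM of mt-Nd1, 2220 of mt-Cytb and 1952 of mt-Nd2, the same fold changes had the opposite sign (log2 -0.21, -0.33 and -0.49). None of the 7 block members was called in either fit. Omitting L_C replicate 1 instead gave 2 mitochondrial members called lower, beside 1805 of all 13738 tested entries. The sign of these calls thus rested on which L_C libraries were used. The mt-Co2 value without the library, log2 0.32 with an SE of 0.24, was larger than that of mt-Nd1, whose SE was 0.038.

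**Figure D3:**
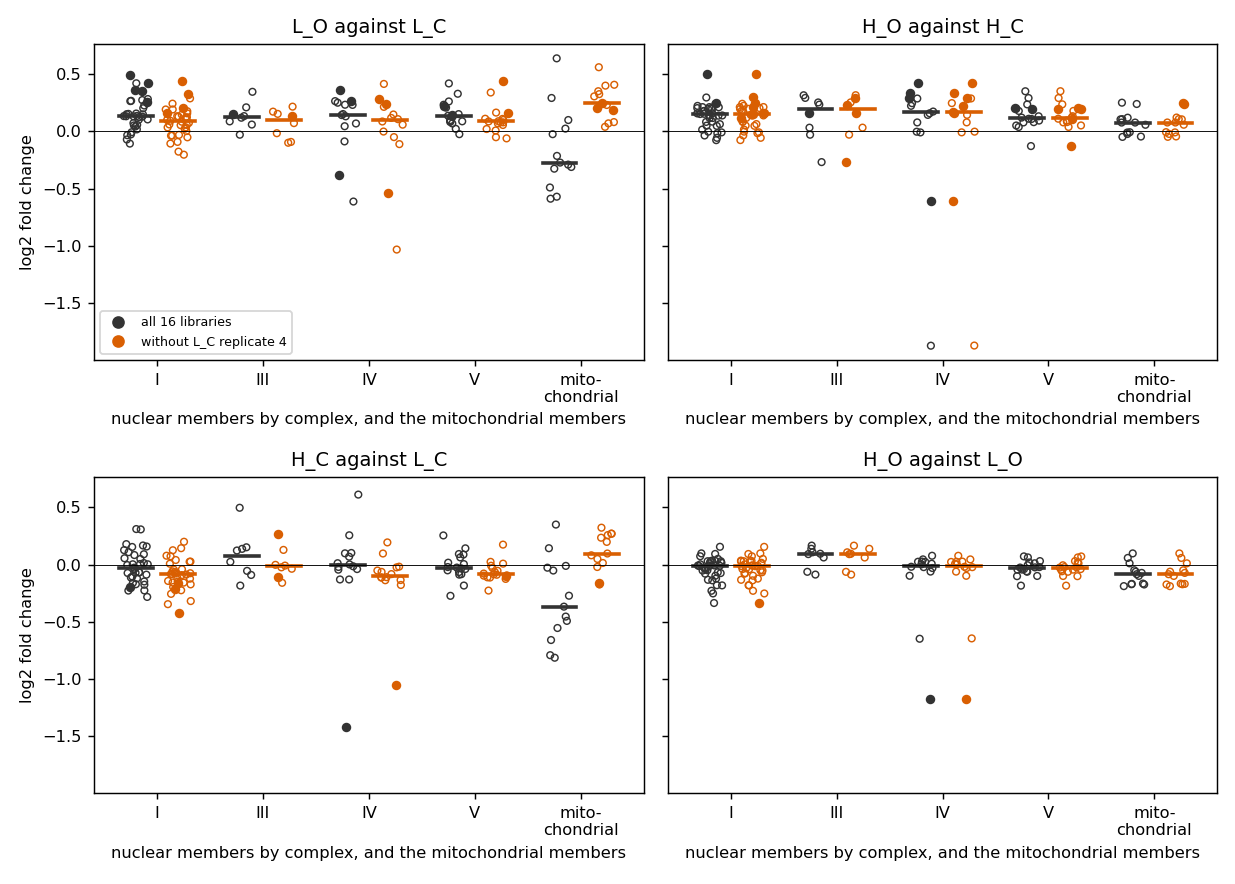
Log2 fold change (y axis) of each tested member in the 4 pairwise comparisons, for nuclear members by complex and for the mitochondrial members; dark symbols are from all 16 libraries, orange from the fit without L_C replicate 4, filled symbols were called, and bars are medians. Nuclear medians lie above 0 in both ox-LDL comparisons with both fits, while the mitochondrial median of L_O against L_C moves from -0.27 to 0.25; the lowest open symbol in H_O against H_C is Cox6b2, which never exceeded 0.496 CPM.

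The comparison of ox-LDL at high glucose shared no library with the previous one. Here 8 of 74 nuclear members were called higher in H_O than in H_C and 1 lower, beside 21.9% of all entries called (10.4% higher, 11.5% lower), so that again the share called higher (10.8%) was near the background. Positive fold changes were found in 61 of 74 nuclear members (82.4%, median log2 0.15) against 51.4% of all entries (median 0.0089). L_C replicate 4 is in neither group and enters through the shared estimate of spread. Without it 20 of 75 (26.7%) were called higher and 3 lower, beside 28.9% of all entries called (14.3% higher, 14.6% lower). Libraries did not overlap for 15 nuclear members higher and 2 lower, beside 29.5% of all entries (14.8% in each direction) and 29.1% without L_C replicate 4. On library totals alone 14 were called higher and 1 lower. The calls over all 13527 tested entries then became 2176 higher and 1166 lower, from 1406 and 1556. The 6 members Atp5b, Atp5f1, Cox7b, Ndufa12, Ndufa4 and Uqcrc1 were called higher at both glucose levels, 60% of those called higher in low glucose and 75.0% of those in high glucose. Over all tested entries the shares called higher at both levels were 59.2% and 68.3%, so the members were near the background here too. When L_C replicate 4 was left out there were again 6, with Ndufs1 in place of Atp5f1, which were 66.7% of 9 and 30% of 20, against 70.0% and 67.4% of all entries.

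Among complex I members, Ndufa12 was 10.7, 9.46, 10.4 and 10.9 CPM in H_C and 12.1, 19.2, 15.97 and 11.47 in H_O, without overlap but with a wide spread among H_O libraries (fold change 1.42, log2 0.50, SE 0.14, adjusted p = 0.013 in edgeR). Its call was lost without H_O replicate 2, the highest of them (adjusted p = 0.0603). Ndufb8 was also called (log2 0.25, SE 0.085, adjusted p = 0.0421), with overlapping libraries and a call that was lost in 10 of 27 alternatives, 9 of them the omission of any L_O library, of H_C replicate 2, 3 or 4, or of H_O replicate 1 or 4. Uqcrc1 of complex III was 117, 113, 111 and 113 CPM in H_C and 126, 125.5, 128.5 and 125.4 in H_O. The groups did not overlap (fold change 1.11, log2 0.16, SE 0.038, adjusted p = 0.00533).

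In complex IV, Ndufa4 was 23.1, 22.7, 22.8 and 20.3 CPM in H_C and 26.6, 30.4, 33.0 and 29.0 in H_O, with every H_O library above every H_C library (fold change 1.34, log2 0.42, SE 0.080, adjusted p = 0.000713 in edgeR). Cox7b was 35.5, 35.9, 36.4 and 33.6 CPM against 41.0, 44.9, 45.9 and 46.9, also without overlap (log2 0.34, SE 0.10, adjusted p = 0.0246), and its call was lost on omitting replicate 3 or 4 of either group (adjusted p up to 0.0705). Cox6a1 was 77.6, 70.7, 70.5 and 58.1 CPM against 78.5, 81.6, 93.1 and 85.1 (log2 0.29, SE 0.079, adjusted p = 0.013), and its call was lost without H_O replicate 3 (adjusted p = 0.0552). Cox7a2l was again lower: 219.8, 219, 203 and 209 CPM in H_C and 148, 145, 129 and 135 in H_O, with a clear gap between the groups (fold change 0.654, log2 -0.61, SE 0.12, adjusted p = 0.000945). This call held in 27 of 27 alternatives, between log2 -0.65 and -0.55. Its paralogue Cox7a2, the widespread form of the corresponding complex IV subunit, was 37.7, 37.1, 35.9 and 32.7 CPM against 38.5, 41.1, 36.9 and 35.02 and was not called (log2 0.08, SE 0.11, adjusted p = 0.692).

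In complex V, Atp5b was 439, 428, 435 and 419 CPM in H_C and 484, 507, 498 and 484 in H_O, without overlap (fold change 1.15, log2 0.20, SE 0.053, adjusted p = 0.0103 in edgeR). Atp5f1 was 104, 109, 105 and 110.1 CPM against 121, 125, 126 and 123, without overlap (log2 0.21, SE 0.052, adjusted p = 0.00767). Of the mitochondrial members edgeR called 0 of 13 with all libraries (0 at an unadjusted p under 0.05), DESeq2 0 and limma-voom 0. Omitting L_C replicate 4, it called 2 higher: mt-Nd1 (log2 0.25, SE 0.035, adjusted p = 1.25e-05) and mt-Cytb, at 729, 815, 786 and 811 CPM in H_C and 931, 889, 921 and 966 in H_O (log2 0.24, SE 0.039, adjusted p = 8.12e-05). These were 15.4% of the 13, beside 14.3% of all entries called higher, so the count was near the background. For both genes the H_O libraries lay above all H_C libraries, and the fold change itself was nearly the same with all libraries (0.25 and 0.24) with an SE of 0.21 and 0.24. mt-Nd2 was not called (log2 0.11, SE 0.049, adjusted p = 0.113 without L_C replicate 4). Members called lower in addition to Cox7a2l without that library were Uqcrh, the hinge protein of complex III (log2 -0.27, adjusted p = 0.00648), and Atp5g2, an isoform gene for the rotating ring of ATP synthase (log2 -0.13, adjusted p = 0.0336), both named after their values were seen.

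**Figure D4:**
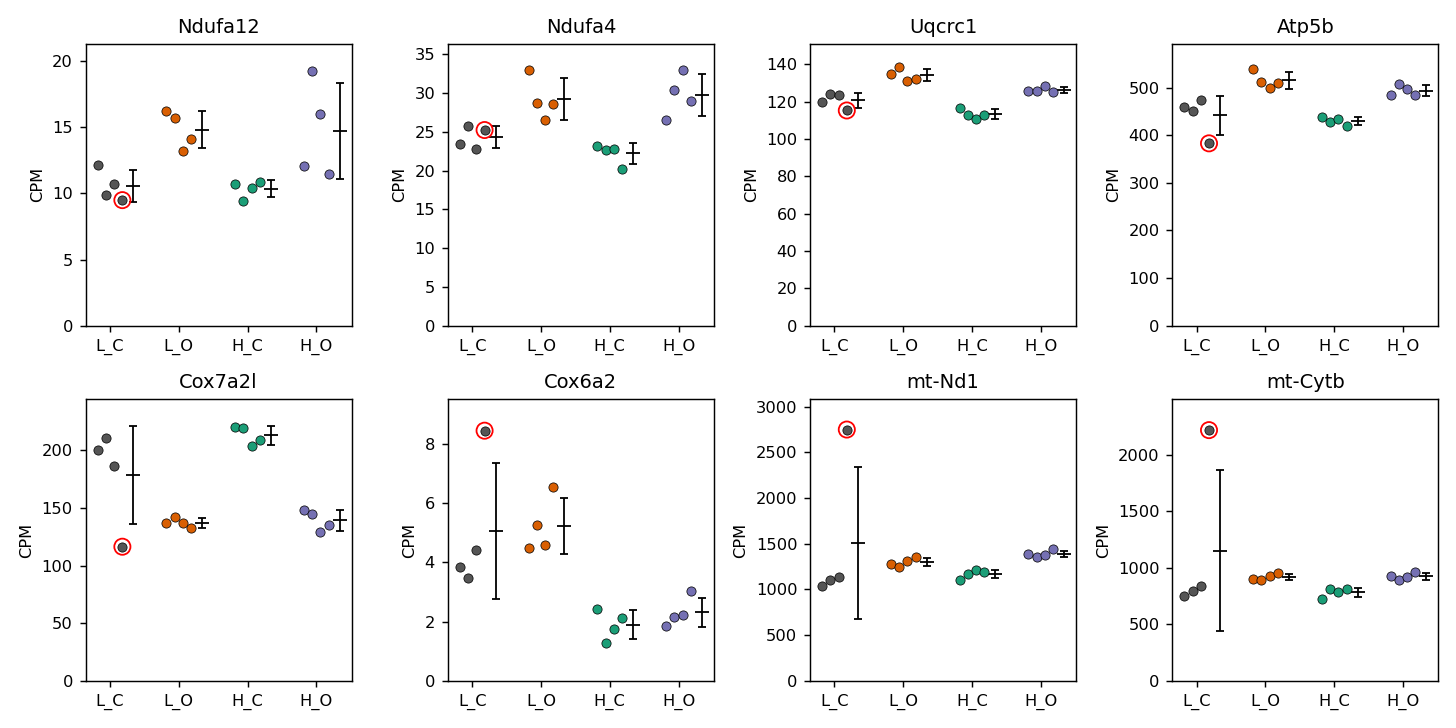
CPM (y axis, from 0) of 8 members in each library by group; bars are mean and SD and the red ring marks L_C replicate 4. Ndufa12, Ndufa4, Uqcrc1 and Atp5b are higher and Cox7a2l lower in H_O than in H_C without overlap, Cox6a2 is lower in both high glucose groups, and mt-Nd1 and mt-Cytb separate L_O from L_C replicates 1 to 3 while replicate 4 stands far above.

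Markers of several peritoneal cell types also differed with ox-LDL, though not in every set. Summed markers of large, resident peritoneal macrophages were 43.7 to 74.7 CPM in L_C and 25.7 to 32.9 in L_O, and 39.8 to 47.0 in H_C and 25.0 to 27.9 in H_O, without overlap at either glucose level. Of these 6 markers, 3 were called lower in L_O and 3 in H_O, beside 13.8% and 11.5% of all entries, and none was at 0 in all libraries. Summed mesothelial and fibroblast markers were 59.2 to 77.7 CPM in L_C and 23.0 to 36.1 in L_O, but 39.2 to 181.0 in H_C and 36.3 to 87.3 in H_O. Summed T and NK cell markers also separated, at 6.00 to 9.68 CPM in L_C and 3.16 to 5.32 in L_O, and at 5.40 to 7.65 in H_C and 3.91 to 5.23 in H_O. Summed B cell markers were 1.71 to 2.36 CPM in L_C and 0.760 to 1.60 in L_O, and overlapped in high glucose, at 1.42 to 2.35 in H_C and 1.21 to 1.72 in H_O. Summed macrophage markers overlapped in low glucose, at 17217 to 19990 CPM in L_C and 18019 to 18724 in L_O. In high glucose they separated, at 18360 to 18811 in H_C and 19206 to 20726 in H_O. Of these 8 markers, 1 was called higher and 3 lower in L_O, and 3 higher and 2 lower in H_O. All entries gave 12% and 13.8%, and 10.4% and 11.5%. Neutrophil sums and erythroid and platelet sums overlapped at both glucose levels. Called lower in L_O and in H_O were 2 and 1 of 7 T and NK cell markers and 1 and 0 of 9 mesothelial and fibroblast markers. B cell markers gave 1 and 0 of 4, and neutrophil markers 1 and 1 of the 2 tested. None of these lists had a marker called higher. Without L_C replicate 4 the T and NK count in L_O was 1 and the others stayed the same, beside 14.5% and 14.6% of all entries called lower. The part of these cells in the changes of the subunits was not tested.

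Promoters of the nuclear members were searched for 3 short motifs in the RefSeq sequences (GRCm38.p6) from 250 bases before to 20 bases after the annotated start, a window of 270 bases. The motifs were GCATGCG for NRF1, CCGGAAG for ETS factors such as GABPA, and ATGGCGG for YY1, each on either strand, all 3 being factors known to act on respiratory genes. Windows were found for 61 of 77 nuclear members, 66 windows in all. The NRF1 letters were in 13.6% of these windows and in 3.33% of all 32851, the ETS letters in 19.7% and 8.08%, and the YY1 letters in 7.58% and 2.62%. Of the 6 members called higher at both glucose levels, 5 had a window, and none of the 3 motifs was in any of them, which says only that these letters are not there. Windows of Atp5b (chr10:128083057-128083326, plus strand) and Cox7a2l (chr17:83514314-83514583, minus strand) are printed as the members with opposite, repeated changes, 5′ to 3′ on the gene's strand and without capitals because no motif was found.
Atp5b: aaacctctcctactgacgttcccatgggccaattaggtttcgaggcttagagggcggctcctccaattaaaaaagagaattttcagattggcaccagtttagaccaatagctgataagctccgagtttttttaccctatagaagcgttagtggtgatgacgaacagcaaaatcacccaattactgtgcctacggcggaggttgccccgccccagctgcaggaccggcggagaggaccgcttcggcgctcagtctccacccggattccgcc
Cox7a2l: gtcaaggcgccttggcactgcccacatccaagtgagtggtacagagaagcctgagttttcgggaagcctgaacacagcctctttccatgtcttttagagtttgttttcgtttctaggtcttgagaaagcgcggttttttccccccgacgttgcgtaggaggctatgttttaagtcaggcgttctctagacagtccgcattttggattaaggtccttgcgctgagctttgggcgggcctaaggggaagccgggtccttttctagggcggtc

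High glucose without ox-LDL changed few members. This comparison shares the L_C libraries with the first and the H_C libraries with the second, so its values are not independent of theirs. Of 74 nuclear members, 0 were called higher and 2 lower in H_C than in L_C, beside 12.8% of all entries called (5.02% higher, 7.75% lower), which is fewer than the background share. The median was log2 -0.02, and 35 of 74 were positive. Libraries did not overlap for 2 nuclear members higher and 3 lower, beside 17.4% of all entries (7.58% higher, 9.82% lower). Cox6a2 was 3.86, 3.48, 4.41 and 8.44 CPM in L_C and 2.44, 1.28, 1.74 and 2.12 in H_C. Every H_C library was below every L_C library, with a fold change of 0.375 (log2 -1.42, SE 0.27, adjusted p = 0.00201 in edgeR) and of 0.484 without L_C replicate 4 (log2 -1.05, SE 0.23, adjusted p = 0.00319). Ndufa10, an accessory subunit of complex I, was 64.0, 67.5, 63.5 and 72.2 CPM against 56.4, 61.4, 58.3 and 56.6 (log2 -0.20, SE 0.057, adjusted p = 0.0273), without overlap, and log2 -0.16 (SE 0.053, adjusted p = 0.0473) when L_C replicate 4 was left out. Its call was lost in 5 of 27 alternatives, without L_C replicate 2 and without H_C replicates 1, 3 or 4 among them, with adjusted p up to 0.0845.

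The same comparison without L_C replicate 4 called 1 nuclear member higher and 6 lower, beside 15.9% of all entries (6.71% higher, 9.21% lower), and 22.7% of nuclear members were positive with a median of log2 -0.08. Libraries did not overlap for 2 members higher and 13 lower, beside 26% of all entries (11.9% higher, 14.2% lower). Uqcrh was the higher one: 34.1, 30.3 and 32.2 CPM in L_C replicates 1 to 3, 13.7 in replicate 4, and 37.8, 40.9, 40.8 and 35.5 in H_C (log2 0.27, adjusted p = 0.021). The lower ones were Cox6a2, Ndufa10, Atp5b (log2 -0.10, adjusted p = 0.0342), Uqcrc1 (log2 -0.11, adjusted p = 0.0244), and, named after their values were seen, Ndufa9 (log2 -0.21, adjusted p = 0.0186) and Ndufs4 (log2 -0.42, adjusted p = 0.00372), both subunits of complex I. The mitochondrial members gave 0 calls of 13 in edgeR with all libraries (4 at an unadjusted p under 0.05), 0 in DESeq2 and 0 in limma-voom. Without L_C replicate 4, mt-Nd5 was called lower: 1255, 1364 and 1408 CPM in L_C replicates 1 to 3 against 1071, 1263, 1208 and 1248 in H_C (log2 -0.16, SE 0.049, adjusted p = 0.0277), with H_C replicate 2 above L_C replicate 1. The median over the 13 moved from log2 -0.37 to 0.10 when that library was left out.

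High glucose on top of ox-LDL, with no osmotic control named in the L_O labels, was accompanied by a fall in Cox6a2. It was 4.47, 5.27, 4.58 and 6.53 CPM in L_O and 1.84, 2.16, 2.21 and 3.03 in H_O, with no overlap (fold change 0.443, log2 -1.17, SE 0.27, adjusted p = 0.0127 in edgeR). It was the 1 member called of 74 nuclear members, beside 6.11% of all entries called (2.71% higher, 3.39% lower). Libraries did not overlap for 0 nuclear members higher and 4 lower, beside 8.18% and 9.52% of all entries, and the same 0 and 4 without L_C replicate 4 beside 8.1% and 9.39%. The comparison uses the L_O and H_O libraries of the ox-LDL comparisons and shares no library with H_C against L_C. The order of the Cox6a2 group means was L_O, L_C, H_O and H_C, in which ox-LDL gave no call at either glucose level (log2 0.04, SE 0.26 and log2 0.29, SE 0.28). The low glucose value was log2 0.41 (SE 0.22, adjusted p = 0.187 in edgeR) without L_C replicate 4, where every L_O library was above every L_C library. Cox6a2 lies on the minus strand at chr7:128205435-128206387 and shares 70 exon bases with Itgad on the other strand. The level of this isoform is low, and its widespread counterpart Cox6a1 gave log2 -0.13 (SE 0.080, adjusted p = 0.319) for H_C against L_C, little changed without L_C replicate 4 (adjusted p = 0.308). Ndufs5 of complex I was also called lower in H_O when L_C replicate 4 was left out (2 called of 75, beside 5.45% of all entries higher and 7.38% lower), at 22.5, 23.9, 21.4 and 23.9 CPM in L_O and 16.01, 18.5, 20.8 and 17.5 in H_O (log2 -0.34, adjusted p = 0.0342, named after its values were seen). Mitochondrial members gave 0 calls of 13 in edgeR, with and without the library (0 and 3 at an unadjusted p under 0.05), and 0 in DESeq2 and limma-voom. With a replicate block and without the library 1 was called higher and 1 lower. All 13734 tested entries then gave 708 higher and 969 lower.

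No member's response to ox-LDL was shown to differ between glucose levels. The interaction gave 0 calls of 74 nuclear and 0 of 13 mitochondrial members in edgeR, beside 0.0148% of all entries (0.00739% in each direction). DESeq2 and limma-voom also called 0 of these members. Over all entries DESeq2 called 78 higher and 17 lower, and limma-voom 0. At an unadjusted p under 0.05 there was 1 nuclear member, Ndufa10 (difference of log2 fold changes 0.23, SE 0.081, adjusted p = 0.4), and 0 mitochondrial members. Cox7a2l gave a difference of -0.23 (SE 0.17, adjusted p = 0.763), and -0.07 (SE 0.068) without L_C replicate 4, where 0 members were called beside 0.386% of all entries (0.299% higher, 0.0874% lower).

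Genes that work beside the subunits were described from lists chosen with earlier results of these data known, so their counts are descriptions. Complex II and the soluble electron carriers had 5 of 8 called higher and 0 lower in L_O against L_C, and 4 of 8 and 0 in H_O against H_C. Over all entries 12% and 10.4% were called higher. The counts without L_C replicate 4 were 4 and 7 of 8, with 0 lower, beside 13.8% and 14.3%. Etfb, the beta subunit of the flavoprotein that passes electrons from fatty acid oxidation, was 32.5, 35.1, 37.2 and 22.0 CPM in L_C, 41.2, 42.6, 46.8 and 42.5 in L_O, 26.7, 23.4, 25.3 and 28.4 in H_C and 31.7, 38.0, 37.1 and 35.5 in H_O. Both ox-LDL groups were above their controls without overlap (log2 0.45, SE 0.12, adjusted p = 0.00816 and log2 0.45, SE 0.12, adjusted p = 0.00927 in edgeR), and the low glucose difference was 0.31 (adjusted p = 0.00374) without L_C replicate 4. Its partner Etfa (log2 0.42 and 0.24) and the membrane dehydrogenase Etfdh (0.27 and 0.24) were called higher at both glucose levels, in low glucose with 0.32 and 0.20 without L_C replicate 4 (adjusted p = 5.12e-05 and 0.0129), and Sdha and Sdhc of complex II in low glucose (0.15 and 0.20). Sdha gave 0.11 (adjusted p = 0.0184) without L_C replicate 4, and Sdhc was named after its values were seen and was not called without that library (adjusted p = 0.0561). Cycs, cytochrome c, was called higher in H_O (log2 0.23, adjusted p = 0.0218) and lower in H_C than in L_C (-0.25, adjusted p = 0.0225, and -0.19, adjusted p = 0.0418 without L_C replicate 4).

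Of 7 respiratory subunits and partners whose symbols the rule does not reach, 4 were called higher in L_O and 2 in H_O, and 4 in each without L_C replicate 4, beside 12% and 10.4% of all entries (13.8% and 14.3% without that library). Ndufab1, the acyl carrier protein within complex I, was called in both (log2 0.47, adjusted p = 0.00141 and 0.40, adjusted p = 0.00578 in edgeR), as was Atpif1, the inhibitor of ATP synthase (0.20 and 0.29). Cyc1, cytochrome c1 of complex III, was called in L_O (0.41, adjusted p = 0.00571). The L_O log2 fold changes without L_C replicate 4 for Ndufab1, Atpif1 and Cyc1 were 0.37, 0.22 and 0.28 with adjusted p of 0.00141, 0.0292 and 0.00158. Of 41 assembly factors, 1 was called higher and 1 lower in L_O and 0 in H_O by edgeR (2 at an unadjusted p under 0.05), and without L_C replicate 4 there were 2 lower in L_O and 3 higher in H_O, each under the background shares above. The median of the assembly factors was log2 0.12 in L_O and 0.13 in H_O, and 0.04 and 0.13 without L_C replicate 4.

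Genes for mitochondrial RNA processing and decay had 7 of 21 called higher and 0 lower in L_O, and 2 of 21 in H_O, beside 12% and 10.4% of all entries called higher, so that the count in H_O was at the background. They were 8 and 4 without L_C replicate 4, beside 13.8% and 14.3%. Lrpprc, which stabilises mitochondrial messages, was 64.8, 63.2, 70.0 and 57.3 CPM in L_C and 78.0, 87.7, 76.0 and 82.6 in L_O, without overlap (log2 0.35, SE 0.063, adjusted p = 0.00044 in edgeR, and 0.30, adjusted p = 0.00047 without L_C replicate 4). Of 18 genes for copying and transcribing mitochondrial DNA, 1 was called in L_O and 0 in H_O by edgeR (1 at an unadjusted p under 0.05), also under the background. Among 12 regulators of mitochondrial biogenesis, 1 was called higher and 2 lower in L_O and 1 higher and 1 lower in H_O, shares near or under the 25.8% and 21.9% of all entries called. The fit without L_C replicate 4 gave 2 higher and 2 lower in L_O and 3 higher and 1 lower in H_O. That was 33.3% called in each, above the 28.3% and 28.9% of all entries. The shares called higher were 16.7% and 25%, beside 13.8% and 14.3%. Myc, a transcription factor, was 6.67, 4.92, 7.61 and 9.55 CPM in L_C, 12.9, 10.6, 13.4 and 12.5 in L_O, 3.84, 4.38, 4.48 and 3.45 in H_C and 9.48, 7.10, 9.16 and 10.5 in H_O. The ox-LDL groups were above their controls without overlap (log2 0.78, adjusted p = 0.00182 and log2 1.17, adjusted p = 5.72e-05), and H_C was below L_C (log2 -0.83, adjusted p = 0.00365). The comparisons with L_C gave 0.95 (adjusted p = 0.000105) and -0.66 (adjusted p = 0.00732) without L_C replicate 4. Sirt1, a deacetylase, was called lower with ox-LDL at both levels (log2 -0.36 and -0.50), and Ppargc1b, a coactivator of mitochondrial genes, in low glucose (log2 -0.62, adjusted p = 0.0053). In low glucose these were -0.34 (adjusted p = 0.000478) and -0.44 (adjusted p = 0.0173) without L_C replicate 4.

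In the list of inner membrane exchange and mitophagy, 3 of 13 were called higher and 2 lower in L_O, and 2 higher and 2 lower in H_O, beside 25.8% and 21.9% of all entries called. There were 4 higher and 2 lower without L_C replicate 4 in each comparison, beside 28.3% and 28.9%. Bnip3l, a receptor that marks mitochondria for removal, was 324, 336, 335 and 309.7 CPM in L_C, 250.3, 268, 245 and 243 in L_O, 349, 349, 338 and 349.7 in H_C and 253, 238, 253 and 255 in H_O. Both ox-LDL groups were below their controls without overlap (log2 -0.37, SE 0.041, adjusted p = 1.75e-06 and log2 -0.47, SE 0.041, adjusted p = 1.02e-07 in edgeR), and leaving out L_C replicate 4 gave -0.40 (adjusted p = 4.72e-08) in low glucose. Pink1, a kinase that acts in mitophagy, was also called lower (log2 -0.42, adjusted p = 0.00182 and -0.54, adjusted p = 0.000235), with a low glucose value of -0.54 (adjusted p = 3.19e-08) without that library.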

How the data were processed

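RNA-seq of 16 libraries was analysed from 1 table of whole-number counts per gene, as deposited; the authors used HISAT2 and DESeq2 on mm10, per the submitters' processing notes, with versions, the counting tool, strand setting and treatment of reads with several matches not given in the sources used here. The table also held 1594 unannotated regions, which were kept. Counts were fitted with edgeR 4.0.16 (R 4.3.3): TMM scaling, filterByExpr by group (13527 entries tested), 1 mean per group over 16 libraries, the quasi-likelihood F test (two-sided, 12 residual degrees of freedom) and Benjamini-Hochberg adjustment over all tested entries, with calls at an adjusted p under 0.05. The same fit without L_C replicate 4 tested 13734 entries. The members and lists were chosen with earlier results of these data known. Genes named were all mitochondrial members, up to 4 called nuclear members per complex and comparison, isoforms of restricted tissues, and up to 4 per list. Levels per kilobase used the principal transcript in GENCODE M21. The fit was tested on simulated data. Alternatives were other scalings and filters, DESeq2 1.42.0, limma 3.58.1 (voom), a replicate block, only the groups compared, and each library left out in turn; sample quality weights and the replicate block without L_C replicate 4 were chosen after seeing the data. Gene counts limit precision for low members, and intervals cover the spread between libraries only.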

Additional observations from a re-analysis of the deposited data

Results flagged for a closer look

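Levels of 31 measures were searched, in each group of 4 libraries, for 1 library far from the other 3, by the gap to its nearest neighbour over the group's whole range and a 95% critical value for 4 libraries. This gave 16 flags in 124 groups, where chance alone flags about 5% of groups, and 10 of them fell on L_C replicate 4.

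L_C replicate 4 was flagged for its low share of nuclear members (gap 0.951; 0.301% against 0.392% to 0.397%) and its high ratio of mitochondrial to nuclear counts (gap 0.862; 12.3 against 3.77 to 4.95). It was the high library for mt-Co1 (0.878), mt-Nd5 (0.949), mt-Nd1 (0.944), mt-Cytb (0.938), mt-Nd2 (0.955) and mt-Nd6 (0.936), all of them outside the stretch from mt-Co2 to mt-Nd4, whose own spread within the group was wide. Among nuclear members it was the low library for Ndufb4 (0.866; 12.97 CPM against 16.8 to 17.4) and Ndufb6 (0.883; 10.3 CPM against 14.5 to 15.1).

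L_O replicate 2 was low for mt-Nd5 (0.831) and mt-Nd6 (0.892; 305 CPM against 339 to 343) and high for Ndufb4 (0.919; 23.6 CPM against 20.7 to 20.97). H_C replicate 1 was low for mt-Nd6 (0.909; 242 CPM against 292 to 297) and H_C replicate 4 for Ndufa4 (0.831; 20.3 CPM against 22.7 to 23.1). H_O replicate 3 was high for Uqcrc1 (0.844; 129 CPM against 125 to 126). No cause was tested for any of these.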

How the results depend on the processing

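Calls of nuclear members in L_O against L_C, 11 with all libraries, became 25 with no scaling beyond library totals and 4 with only the groups compared, and 6 to 11 with 1 library left out in turn (7 and 6 without L_O replicate 3 and 4). Over all entries 1623 were called higher and 1867 lower. These became 2857 and 1392 with no scaling, and 1091 and 1522 with only the groups compared. In H_O against H_C, 9 became 15 with no scaling, 18 with only the groups compared and 22 with sample quality weights, and 7 to 23 with 1 library left out (23 without L_C replicate 4). Calls over all entries, 1406 higher and 1556 lower, became 2176 and 1166 with no scaling and 1849 and 1941 with only the groups compared. They were 2065 and 2087 with weights and 1964 and 2001 without L_C replicate 4. In H_C against L_C, 2 became 1 with only the groups compared and 6 with weights (1 to 7 with 1 left out: 7 without L_C replicate 4 and 1 without L_C replicate 2 or H_C replicate 1 or 4), and in H_O against L_O, 1 became 2 and 3 (1 to 2). All entries gave 679 higher and 1049 lower calls in H_C against L_C. With only the groups compared these were 340 and 574, and with weights 931 and 1318. In H_O against L_O they were 367 and 459, then 718 and 901, and 790 and 1056. Mitochondrial calls, 0 in each comparison, became 1 with only the groups compared in L_O against L_C and in H_O against L_O and 2 in H_O against H_C; 1 and 2 with weights in L_O against L_C and H_O against H_C; and with 1 library left out 0 to 3, 0 to 2 and, in H_C against L_C, 0 to 2 (2 without L_C replicate 1, 2 or 3). Log2 fold changes in L_O against L_C reversed for mt-Nd1 (0.25 without L_C replicate 4, 0.22 with weights), mt-Cytb (0.21 and 0.17) and mt-Nd2 (0.18 and 0.13), with ranges over omitted libraries of -0.36 to 0.25, -0.48 to 0.21 and -0.68 to 0.18, and the cause was not tested. The replicate block gave nuclear calls of 11, 9, 2, 1 and 0 and changed the mitochondrial calls to 1 in L_O against L_C. Without L_C replicate 4 the block gave nuclear calls of 8, 19, 4, 2 and 0, against 10, 23, 7, 2 and 0 with no block, and mitochondrial calls of 3, 2, 2, 2 and 0, against 3, 2, 1, 0 and 0. The mitochondrial calls of H_O against L_O were 1 higher and 1 lower. Over all entries the block gave 1595 higher and 1805 lower in L_O against L_C, and 1784 and 1908 without L_C replicate 4. In H_O against H_C these were 1348 and 1525, and 1905 and 1968. In H_C against L_C they were 654 and 978, and 802 and 1124, and in H_O against L_O 329 and 421, and 708 and 969. The numbers were not taken as pairs because the labels do not say what they mark. Same-numbered libraries deviated together at r of -0.16 to 0.067 over 24 pairs, with 0 above 0.1, and 4 of 24 correlated best with their own number. The other scalings, the filters, DESeq2 and limma-voom without weights left each count of called members within 1.5 times of its value. Over all entries the interaction calls, 1 higher and 1 lower, became 78 and 17 with DESeq2 and 0 and 0 with limma-voom. Low counts limit what can be said of Cox4i2, Cox6b2, Cox7a1 and Ndufa4l2.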
